A study of Mus musculus with 12 samples.

Results

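Rod photoreceptors carry an outer segment, a modified cilium packed with a stack of membrane discs that hold the light-sensing machinery. The flattened edge of each disc, the rim, is shaped by a pair of tetraspanins, peripherin-2 (*Prph2*) and ROM1 (*Rom1*), and holds the retinoid and lipid flippase ABCA4 (*Abca4*). New discs form at the base of the outer segment, where prominin-1 (*Prom1*) and the photoreceptor cadherin CDHR1 (*Cdhr1*) are found, and the small palmitoylated protein PRCD (*Prcd*) is part of the disc membrane. The microtubule core, the axoneme, carries the doublecortin-domain proteins RP1 (*Rp1*) and RP1L1 (*Rp1l1*), while the kinase MAK (*Mak*) limits the length of the cilium and the tubby-like protein TULP1 (*Tulp1*) is needed for protein transport to the outer segment. Variants in genes of this kind cause inherited retinal degeneration in people.

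These 10 genes were chosen by name, and all 10 were found among the 56748 genes of the table. They were measured in polyribosome-bound RNA pulled down from rods (Rod-TRAP, here rods) and in total RNA of the retinal lysate (input, here retina). All mice carried the RiboTag allele and i75-Rod-Cre, a Cre driven by a rod-specific promoter, so that rod ribosomes were tagged in both genotypes. Control mice had 1 floxed *Pkm2* allele and 1 intact allele (Pkm2fl/+), so Cre acted on *Pkm2* in them too, and Pkm2Rodko mice had both alleles floxed (Pkm2fl/fl). *Pkm2* names the M2 form of pyruvate kinase made from *Pkm*, a glycolytic enzyme. Each of the 4 groups, control rods, Pkm2Rodko rods, control retina and Pkm2Rodko retina, had 3 libraries. The series description gives an age of 2 weeks and the study's methods 2 months, and which holds for these libraries could not be settled. The labels do not say which animals a replicate came from, so p-values measure the spread between libraries, which may be partly technical.

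The libraries held 13458890 to 22790074 reads on genes. *Pkm*, counted as a whole gene, was at a deposited value of 51049 to 54504 in control rods and 22246 to 23751 in Pkm2Rodko rods, a log2 change of −1.20 (limma, adjusted p = 5.36e-05), and its log2 change in retina was −0.65 (adjusted p = 0.0219). All 14 rod markers were higher in control rods than in control retina (median log2 ratio 1.91), while the medians were −0.70 for 11 cone markers, −3.10 for 12 bipolar markers, −2.87 for 10 Müller glia markers and −2.44 for 10 pigment epithelium markers. They were −2.77 for amacrine, −3.02 for ganglion, −3.14 for horizontal, −3.11 for microglia and −2.96 for endothelial markers. No rod, cone, bipolar, Müller glia or pigment epithelium marker was at 0 over a whole group. Summed pigment epithelium markers ranged from 121 to 1117 CPM (reads per 1000000 reads, scaled by TMM) between the 3 control retina libraries. Of the 11 cone markers 1 was called higher in control rods and 9 lower (highest log2 ratio 0.64). Of the 12 bipolar markers 1 was called higher and 10 lower (highest 0.89). Called higher were 23.5% of all genes tested. Summed bipolar markers had a median of 742 CPM in control rods and 1455 in control retina.

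The promoters of the 3 disc rim genes are shown, since they hold the pair with the highest levels of the set, *Prph2* and *Rom1*, and their rim partner *Abca4*. RefSeq promoter windows (GRCm38.p6, the 250 bases before the annotated start) were found for 8 of the 10 genes, with a second window each for *Prom1* and *Mak*. Each was searched on both strands for TAATC, the core of the sequence bound by the photoreceptor homeodomain factors CRX and OTX2, for its longer form TAATCC, which contains TAATC, and for TGCTGA, part of the NRL binding sequence. Capitals mark TAATC or its reverse complement GATTA in these 3 windows, 5′ to 3′ on the strand of the gene: *Prph2* at chr17:46910228-46910477 (plus strand), *Abca4* at chr3:122044210-122044459 (plus strand) and *Rom1* at chr19:8929357-8929606 (minus strand).
Prph2: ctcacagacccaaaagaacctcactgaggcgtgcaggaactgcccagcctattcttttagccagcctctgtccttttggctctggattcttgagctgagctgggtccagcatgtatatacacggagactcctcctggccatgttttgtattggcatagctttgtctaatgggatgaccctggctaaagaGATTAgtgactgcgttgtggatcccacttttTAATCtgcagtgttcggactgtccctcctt
Abca4: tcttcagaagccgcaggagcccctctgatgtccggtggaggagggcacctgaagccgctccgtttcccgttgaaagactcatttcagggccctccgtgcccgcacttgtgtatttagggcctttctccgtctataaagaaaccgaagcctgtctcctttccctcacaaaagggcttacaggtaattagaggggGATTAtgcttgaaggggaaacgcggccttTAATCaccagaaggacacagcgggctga
Rom1: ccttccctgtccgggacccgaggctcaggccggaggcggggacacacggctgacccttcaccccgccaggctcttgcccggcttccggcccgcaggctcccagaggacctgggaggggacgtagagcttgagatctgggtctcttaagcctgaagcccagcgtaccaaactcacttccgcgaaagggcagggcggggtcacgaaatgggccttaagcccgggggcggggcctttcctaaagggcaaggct
The *Prph2* window holds the core at bases −61 to −57 and −30 to −26 from the start, and that of *Abca4* at −57 to −53 and −28 to −24. The *Rom1* window holds none of these letters. TAATC was found in a window of 5 of the 8 genes (*Prph2*, *Abca4*, *Prom1*, *Prcd* and *Mak*) and in 19.8% of all 32851 promoter windows of this length. TAATCC was found for 2 of the 8 (*Abca4* and *Mak*) and in 6.25% of all windows, and TGCTGA for 0 of the 8 and in 16.1% of all windows. The counts are per gene, with 2 windows each for *Prom1* and *Mak*, while the shares are per window. The only TAATC of *Prom1* lay in its downstream window (chr5:44094769-44095018), as did the only TAATCC of *Mak* (chr13:41070466-41070715). A match is a description of the letters and no measurement of binding.

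Levels were compared between genes per length, as CPM per kilobase of the longest supported coding transcript (RPKM below). In control rods *Prph2* had the highest level, with 7532, 6790 and 7537 RPKM in the 3 libraries, and ranked 5 among 52073 genes with a length. *Rom1* followed with 4976, 4394 and 5253 RPKM and ranked 7. Both rim tetraspanins were thus apart from each other and from all other genes of the set in every control rod library. *Tulp1* (1242 ± 169 RPKM, SD, n = 3) and *Cdhr1* (1037 ± 80.0) came next, and their libraries overlapped. *Prcd* (450 ± 46.0), *Prom1* (439 ± 14.5) and *Abca4* (410 ± 22.5) could not be ordered beyond their spread. *Rp1* (316 ± 43.9) was above *Rp1l1* (258 ± 5.46) in all control rod libraries, and *Mak* was lowest, at 89.7, 89.8 and 89.4 RPKM. With the length of all annotated exons in place of the transcript, *Tulp1* fell from rank 3 to rank 4 within the set, since its annotated exons sum to 6664 bases and its transcript to 2091. The order of *Rp1* and *Rp1l1* then turned, with *Rp1* at 175, 202 and 153 RPKM and *Rp1l1* at 224, 233 and 226 in the 3 control rod libraries, so their order depends on the length used.

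**Figure D1:**
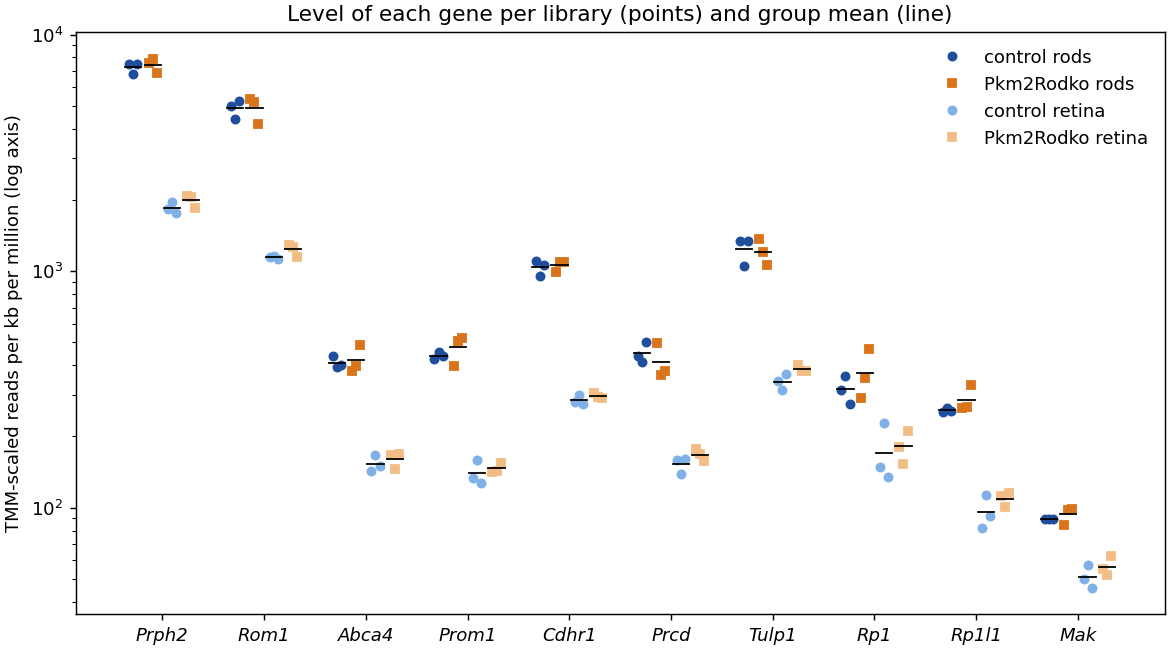
Level of the 10 disc and axoneme genes in each of the 12 libraries, in RPKM (TMM-scaled) on a log axis; points are libraries, lines are means of 3 libraries, and colours and shapes give the 4 groups. Rod libraries lie above retina libraries for every gene, with control rod means from 7286 RPKM for Prph2 to 89.6 RPKM for Mak.

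In retina the order was partly different. *Prph2* (1852 ± 102 RPKM) and *Rom1* (1143 ± 13.2) were again first in control retina, and *Mak* (51.0 ± 5.68) was last. *Rp1*, however, took the fifth place in control retina with 149, 227 and 134 RPKM, level with *Abca4* (153 ± 13.0), *Prcd* (153 ± 12.2) and *Prom1* (140 ± 17.1), whereas in control rods it lay below all 3 of them. The 10 genes together took 3.47% to 3.76% of all reads in the 6 rod libraries and 1.45% to 1.65% in the 6 retina libraries, and *Prph2* alone took a mean of 1.61% in control rods and 0.599% in control retina.

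*Prom1*, *Cdhr1*, *Abca4*, *Tulp1*, *Rp1*, *Rp1l1* and *Mak* were also set beside their relatives by family. Given is the relative with the highest level per length in control rods. No relatives were listed for *Prph2*, *Rom1* and *Prcd*. *Prom2*, the other prominin, had 0 reads in the 3 control rod libraries, where a count of 0 allows up to 3 reads, and *Prom1* had 75550. *Cdhr3*, the highest of 4 other cadherin-related genes, had 3 reads against 184609 for *Cdhr1*. *Abca3* (10.6 ± 0.930 RPKM) was the highest of 15 other ABCA transporters, and *Abca4* was at 410 RPKM. *Tub* reached 96.0 ± 0.837 RPKM beside 1242 for *Tulp1*, so the tubby family had a second member at a level near that of *Mak*. Among 8 other doublecortin-domain genes *Dclk1* was highest, with 8.36 ± 0.777 RPKM beside 316 for *Rp1* and 258 for *Rp1l1*. *Mok* (17.7 ± 2.05 RPKM) and *Cilk1* (16.5 ± 0.335) were the kinases related to *Mak*, which was at 89.6 ± 0.183.

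The first comparison asked how strongly each gene is represented in the rod pulldown relative to the whole retina. In control mice all 10 genes were higher in rods (limma, adjusted p under 0.05), where 23.5% of the 25584 genes tested were higher by the same call. The libraries of the 2 fractions did not overlap for any of the 10 genes, as for 25.2% of all genes in this direction. The median log2 ratio of rods to retina was 1.60 for the 10 genes and −0.37 for all genes tested. The median of all genes depended on the filter. Over the 12918 genes with at least 10 reads in every library it was 0.24 in control mice and 0.26 in Pkm2Rodko mice. In Pkm2Rodko mice all 10 genes were again higher, where 23.9% of genes were called higher, with a median log2 ratio of 1.51 beside −0.32 for all genes, and with no overlap of libraries for any of the 10 (26.3% of all genes). In bulk samples fewer cells of a type and less RNA per cell cannot be told apart. Cones use most of these genes too, and the summed level of the 11 cone markers was 802 to 1149 CPM in control rods and 1255 to 1356 in control retina, so reads from rods and cones cannot be told apart.

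Among the rim genes, *Rom1* had the highest ratio of the set. Its level was 4394 to 5253 RPKM in control rods and 1130 to 1156 in control retina, a log2 ratio of 2.09 ± 0.10 (SE), or 4.25-fold. *Prph2* was at 6790 to 7537 RPKM in control rods and 1767 to 1965 in control retina, a log2 ratio of 1.98 ± 0.10 (3.93-fold). Among all genes tested these ratios lay at the percentiles 99.9 for *Rom1* and 99.8 for *Prph2*. *Abca4* rose less, with 436, 395 and 400 RPKM in control rods and 142, 168 and 149 in control retina, a log2 ratio of 1.42 ± 0.10. 

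Among the disc formation genes the log2 ratio in control mice was 1.86 ± 0.08 for *Cdhr1*, 1.65 ± 0.11 for *Prom1* and 1.55 ± 0.11 for *Prcd*. *Prcd* shares 201 exonic bases with *Cygb* on the opposite strand in GENCODE vM21, and *Cygb* had 329 to 520 reads in control rods and 2052 to 3087 in control retina. *Prom1* shares 424 exonic bases with the antisense gene *Gm16401*, which had 41 to 55 reads in control rods. Whether counting used strand is not given in the sources used here, so reads in these stretches cannot be told apart.

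Among the axoneme and transport genes the ratios spread widest. *Tulp1* had a log2 ratio of 1.86 ± 0.11, near that of *Cdhr1*, and *Rp1l1* had 1.44 ± 0.11, near that of *Abca4*. *Rp1* was at 313, 361 and 274 RPKM in control rods and 149, 227 and 134 in control retina, a log2 ratio of 0.92 ± 0.19 (adjusted p = 0.000668). *Mak* was at 89.4 to 89.8 RPKM in control rods and 46.0 to 57.1 in control retina, a log2 ratio of 0.82 ± 0.09. *Rp1* and *Mak* also had the lowest ratios in Pkm2Rodko mice, 1.02 and 0.73.

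**Figure D2:**
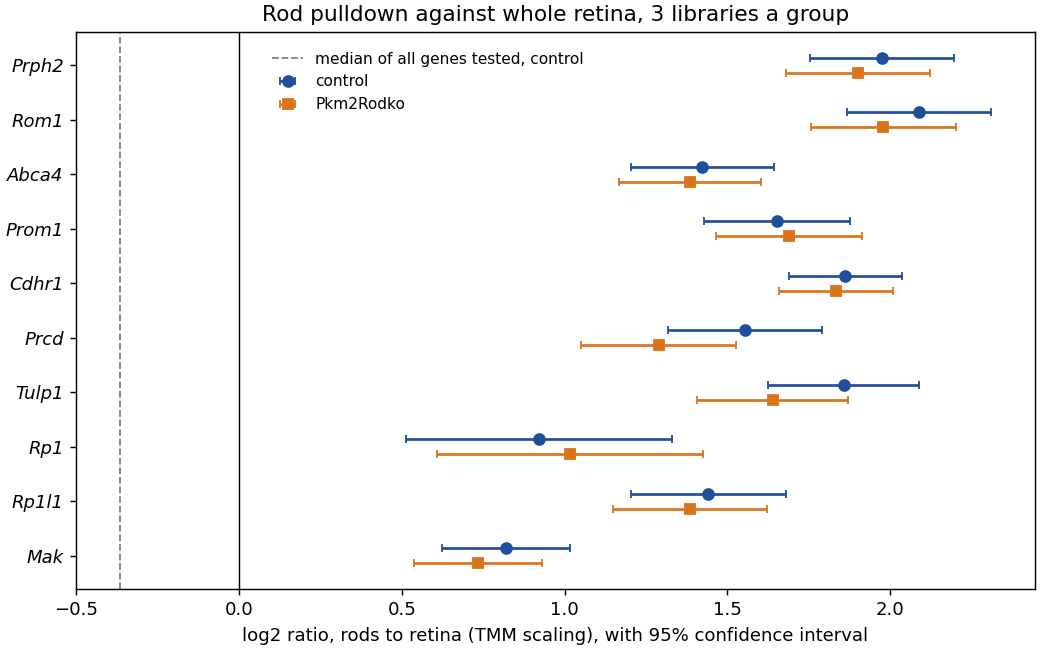
Log2 ratio of rods to retina for each gene (x axis, TMM scaling, 3 libraries a group) in control and Pkm2Rodko mice, with 95% confidence intervals from limma; the dashed line is the median of all genes tested in control mice. All intervals lie above 0, with Rom1 and Prph2 farthest right and Rp1 and Mak nearest to 0.

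These ratios depend on the scale chosen for the 2 fractions, since TMM assumes that most genes are equal between them. Scaled by total reads, the median ratio of the 10 genes in control mice was 1.05 and that of all genes −0.76, and 9 of the 10 genes stayed called higher where 8.43% of all genes were. Over all genes the split was 6001 higher and 9083 lower with TMM and 2184 higher and 12706 lower with total reads. *Rp1* then had a log2 ratio of 0.37 (adjusted p = 0.103) in control mice, and in Pkm2Rodko mice *Rp1* (0.43, adjusted p = 0.0614) and *Mak* (0.15, adjusted p = 0.166) were not called. On the deposited values, which were scaled within each fraction, neither *Rp1* nor *Mak* was called in control mice, at 0.33 (adjusted p = 0.162) and 0.22 (adjusted p = 0.0556). The other 8 genes were called higher in both genotypes under every scaling tried.

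A comparison that needs no scaling is the number of reads of each gene per read of *Prph2* in the same library, chosen after the values were seen. The log2 ratio of rods to retina of *Prph2* itself lay at percentile 99.8 of all genes tested in control mice. Most genes per read of *Prph2* would thus come out higher in retina, and the share over all genes was not computed. The p-values of these ratios are therefore no separate evidence beyond the order of the ratios above. Each of the 6 rod libraries was set against the retina library of its genotype and replicate number in a 2-sided exact permutation test, which cannot go below p = 0.03125 for 6 pairs, and 9 ratios were adjusted together. *Mak* per *Prph2* was higher in retina than in rods by 1.16 ± 0.08 on the log2 scale (SD of 6 pairs), or 2.24-fold, in 6 of 6 pairs (exact p = 0.03125, adjusted p = 0.0402). *Rp1* per *Prph2* was higher in retina by 0.97 ± 0.19 (1.96-fold) in 6 of 6 pairs, with the same p-values. The ratios of *Abca4* (0.53 ± 0.14), *Rp1l1* (0.52 ± 0.11), *Prcd* (0.52 ± 0.22), *Prom1* (0.27 ± 0.11) and *Tulp1* (0.19 ± 0.14) to *Prph2* were also higher in retina in 6 of 6 pairs (exact p = 0.03125 and adjusted p = 0.0402 for each).

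The 2 remaining ratios were closest to equal. *Cdhr1* per *Prph2* was higher in retina by 0.09 ± 0.07 in 5 of 6 pairs and *Rom1* per *Prph2* was lower by 0.10 ± 0.07 in 5 of 6 pairs (exact p = 0.0625 for both, adjusted p = 0.0625). Reads of *Prph2* per read of *Rp1* were 9.34, 7.29 and 10.7 in control rods and 4.75, 3.35 and 5.10 in control retina. Transcript length moved with the ratio of fractions as well: over 11084 genes, the log2 ratio of control rods to control retina fell by 0.30 for each doubling of transcript length, and its part in the differences between these genes was not tested.

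Genes that work with this set were counted from lists chosen with earlier results known. Of 10 other disc and outer segment membrane genes, 10 were higher in control rods (median log2 ratio 1.24), among them *Fscn2* (1.97), a photoreceptor fascin, with *Pcare* (0.60) and the flippase subunit *Tmem30a* (0.61) lowest. Of 15 other genes of the connecting cilium and axoneme, 10 were higher and 1 lower (median 0.43). *Arl3* (1.23) and *Arl13b* (1.21), small GTPases of the cilium, were highest, and *Rpgrip1* (−0.74) was lower while *Rpgr* (−0.12, adjusted p = 0.654) was not called. Scaled by total reads, 8 of the 10 disc genes and 5 of the 15 cilium genes were called higher and 5 of the 15 lower. Of all genes, 23.5% were called higher with TMM and 8.43% with total reads. The numbers called lower are given above. The sign of the median of the cilium list thus rests on the scaling, at 0.43 with TMM and −0.12 with total reads. This median lay above that of all genes under both scalings (−0.37 and −0.76). The size of the gap also rests on the genes tested. Over the 12918 genes with at least 10 reads in every library, the median of all genes with TMM was 0.24. The median of the cilium list under that filter is not given here.

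**Figure D3:**
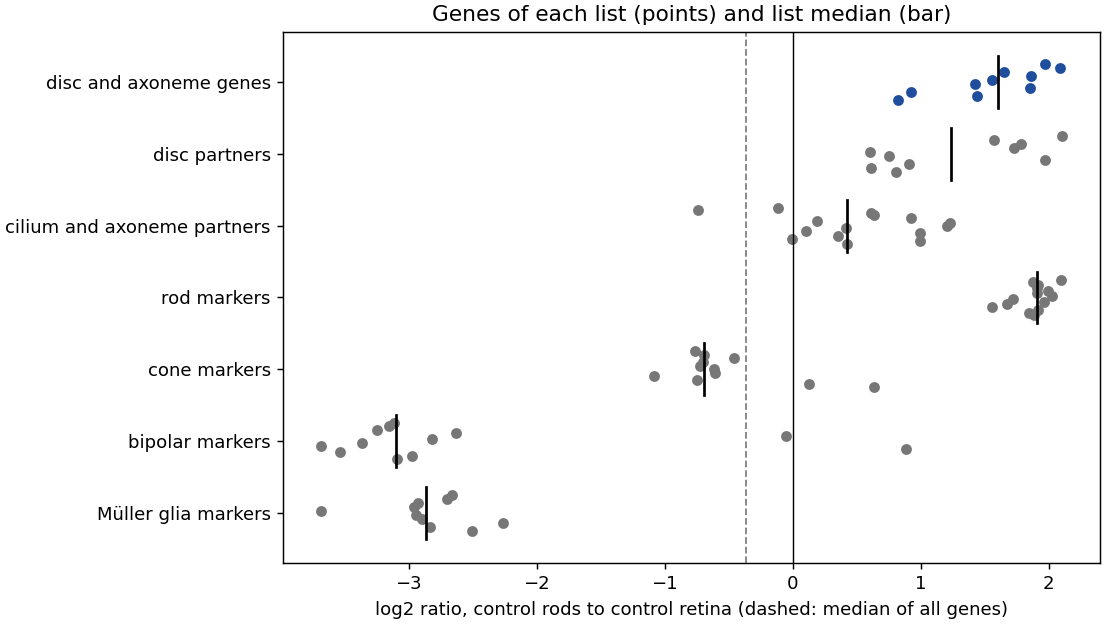
Log2 ratio of control rods to control retina (x axis, TMM scaling) for the genes of each list, with 1 point a gene and a bar at the list median; the solid line is 0 and the dashed line the median of all genes tested. The disc and axoneme genes (median 1.60) lie between the rod markers (1.91) and the cilium and axoneme partners (0.43), and cone, bipolar and Müller glia markers lie to the left of 0 by their medians.

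The profile over the 12 libraries was then compared with that of all other genes. Each gene's log2 values were centred on their own mean, and the root mean square difference from the mean profile of the 10 genes was taken over 16533 genes. The 5 most alike were *Gnb5* (0.05), a G protein subunit that acts with RGS9 in the recovery of the light response, *Nim1k* (0.05), *Cngb1* (0.05), the beta subunit of the rod channel, *Rdh8* (0.05), an outer segment retinol dehydrogenase, and *Pip4k2c* (0.06). Of the members, *Abca4* (0.10), *Rp1l1* (0.12) and *Prom1* (0.12) were nearest to their own mean profile and *Mak* (0.38) and *Rp1* (0.36) farthest.

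The second comparison asked what loss of *Pkm2* in rods did to these transcripts on rod ribosomes. None of the 10 genes passed the test in rods, where limma called 0% of the 20658 genes higher and 0.0194% lower. edgeR and DESeq2 on the recovered reads also called 0 of the 10. At an unadjusted p under 0.05 the count by limma was 0 of 10, where 4.77% of all genes tested passed. The log2 changes ran from −0.12 for *Prcd* to 0.22 for *Rp1*, with a median of 0.04 beside 0.01 for all genes, and the groups overlapped for all 10, where they did not for 4.49% of genes with higher and 5.4% with lower Pkm2Rodko libraries. *Prph2* had deposited values of 283634, 256184 and 281058 in control rods and 284325, 300054 and 260383 in Pkm2Rodko rods, a log2 change of 0.04 with a 95% interval of −0.21 to 0.29. *Rom1* was at 0.01 (−0.24 to 0.27) and *Abca4*, with values of 38584, 41211 and 50352 in Pkm2Rodko rods beside 40566 to 44743 in control rods, at 0.04 (−0.19 to 0.27). As a fold, the interval of *Prph2* ran from 0.862 to 1.23.

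*Prom1* (0.11, interval −0.12 to 0.35), *Cdhr1* (0.04, −0.17 to 0.25), *Tulp1* (−0.03, −0.28 to 0.23) and *Mak* (0.07, −0.12 to 0.25) had log2 changes near 0 as well. *Prcd* was at 5746, 5465 and 6556 in control rods and 6551, 4826 and 5028 in Pkm2Rodko rods, a log2 change of −0.12 (−0.37 to 0.13). *Rp1* was at 30360, 35146 and 26317 in control rods and 28110, 34687 and 45858 in Pkm2Rodko rods, a log2 change of 0.22 (−0.11 to 0.56). *Rp1* thus spread more within the Pkm2Rodko group than the groups differed, and without the third library of that group the change was 0.04. *Rp1l1* was at 23910 to 24955 in control rods and 24723, 25412 and 31296 in Pkm2Rodko rods, where the library highest for *Rp1* was again the highest (log2 change 0.15, −0.06 to 0.37). Beside these values, 10 of 10 Müller glia markers and 10 of 12 bipolar markers had negative changes in rods (medians −0.35 and −0.42, none called), and 12 of 14 rod markers had positive ones (median 0.05, none called). The part of such a shift in the values of the 10 genes was not tested.

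**Figure D4:**
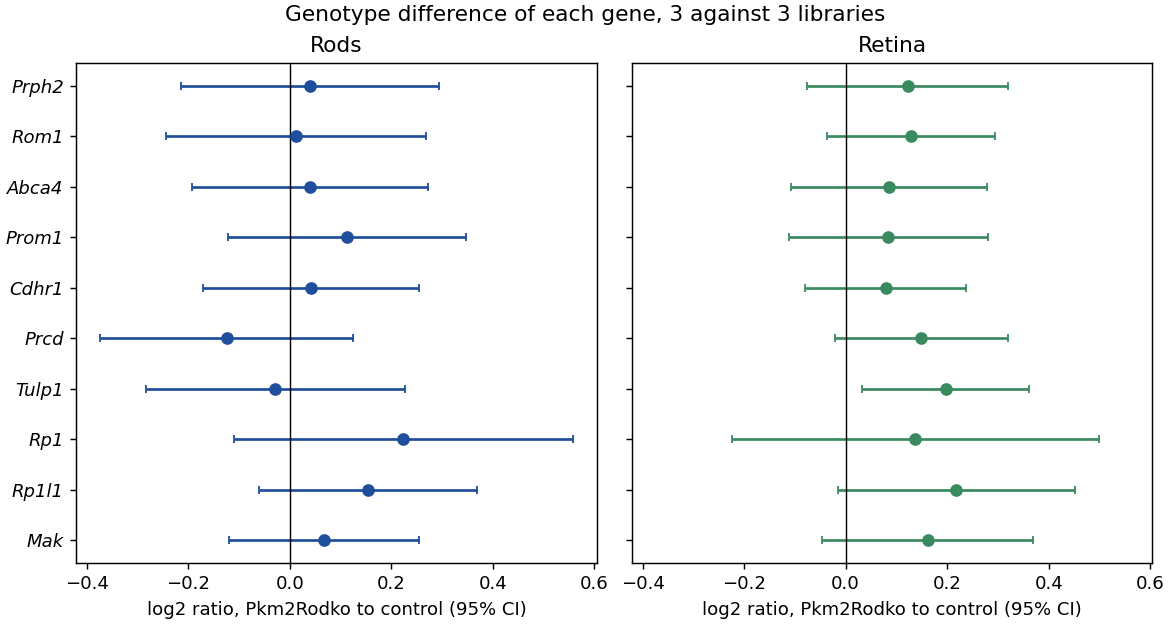
Log2 ratio of Pkm2Rodko to control for each gene in rods (left) and retina (right), from limma on log2(deposited value + 1), with 95% confidence intervals over 3 against 3 libraries. In rods the points lie on both sides of 0, and in retina all 10 lie above 0 with the interval of Tulp1 alone not reaching 0.

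In retina none of the 10 genes passed either, where limma called 0% of the 25590 genes higher and 0.00391% lower, and edgeR and DESeq2 also called 0 of the 10. All 10 had positive log2 changes, from 0.08 for *Cdhr1* to 0.22 for *Rp1l1*, with a median of 0.13 beside 0.00 for all genes tested. *Tulp1* was at 15150, 14067 and 16330 in control retina and 17854, 16990 and 17298 in Pkm2Rodko retina. Its groups did not overlap, with a log2 change of 0.20 (interval 0.03 to 0.36, unadjusted p = 0.0223 and adjusted p = 0.947 by limma). *Rom1* was at 36670, 37511 and 36606 in control retina and 41777, 41359 and 38075 in Pkm2Rodko retina, a log2 change of 0.13 (−0.04 to 0.29, adjusted p = 0.947), again with no overlap. For the other 8 genes the groups overlapped. Groups that do not overlap, with the Pkm2Rodko libraries higher, were thus seen for 2 of the 10 genes and for 4.53% of all genes (lower for 0 of the 10 and 4.76% of all genes), and 1 of the 10 passed an unadjusted p of 0.05, as did 4.18% of all genes in either direction. An exact permutation test of 3 against 3 libraries cannot go below p = 0.1.

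*Prph2* was at 102920, 112008 and 100553 in control retina and 118092, 117621 and 107627 in Pkm2Rodko retina, a log2 change of 0.12 (−0.08 to 0.32). *Rp1l1* (0.22, −0.02 to 0.45), *Mak* (0.16, −0.05 to 0.37), *Prcd* (0.15, −0.02 to 0.32) and *Rp1* (0.14, −0.22 to 0.50) had intervals that included 0. *Abca4* and *Prom1* were at 0.09 (−0.11 to 0.28) and 0.08 (−0.11 to 0.28). In the same libraries 12 of 14 rod markers had positive changes (median 0.08), while 12 of 12 bipolar markers (median −0.23), 10 of 10 Müller glia markers (−0.14) and 9 of 11 cone markers (−0.12) had negative ones, with none called. The medians of the other lists were 0.19 for pigment epithelium (5 of 10 positive), −0.05 for amacrine (4 of 10 positive) and −0.03 for ganglion markers. They were −0.10 for horizontal, −0.21 for microglia and −0.13 for endothelial markers, again with none called. The 10 genes and the rod markers thus both had small positive medians in retina. The part of such a difference in the values of the 10 genes was not tested.

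The difference between the genotype effects in rods and in retina was tested directly in the fit of all 12 libraries. None of the 10 genes passed, and 0% of the 25584 genes did in either direction, with 4.41% at an unadjusted p under 0.05 and 0 of the 10. The differences on the log2 scale ran from −0.27 for *Prcd* (interval −0.60 to 0.07) and −0.22 for *Tulp1* (−0.55 to 0.11) to 0.09 for *Rp1* (−0.48 to 0.67), with 8 of 10 negative. edgeR and DESeq2 called 0 of the 10 here as well.

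The spread between libraries of a group was itself uneven over the set. *Rp1* varied most, with a coefficient of variation of its deposited values of 14.4% in control rods, 24.8% in Pkm2Rodko rods, 29.7% in control retina and 16.6% in Pkm2Rodko retina. Its log2 SD exceeded that of 93.1% to 99.3% of genes with a mean value over 1000. *Mak*, by contrast, had a coefficient of variation of 0.823% in control rods and 9.24% to 11.4% in the other groups. Within each fraction *Rp1* was highest in the second control library and in the third Pkm2Rodko library, in rods (35146 and 45858) and in retina (33388 and 31539) alike, so the libraries of the same number, taken as pulldown and input of the same lysate, deviated together.

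Deviations were also set against transcript length. The 5 longest were *Prom1*, *Cdhr1*, *Rp1l1*, *Rp1* and *Abca4* (4089 to 7263 bases) and the 5 shortest *Prcd*, *Rom1*, *Tulp1*, *Prph2* and *Mak* (934 to 3562). In rods, the median deviation of the long genes from their group mean less that of the short genes was −0.04, 0.15 and −0.12 in the control libraries and −0.29, −0.11 and 0.32 in the Pkm2Rodko libraries, on the log2 scale. Over 9385 genes the deviation per doubling of transcript length was −0.0019, 0.04 and −0.04 in control rods and −0.09, −0.01 and 0.10 in Pkm2Rodko rods. The 6 rod libraries stood in the same order by both measures. In retina the same difference between long and short genes ran from −0.13 to 0.18 and the slope over 11944 genes from −0.04 to 0.04, and the orders were not the same. The third Pkm2Rodko rod library, with the highest values for *Rp1*, *Rp1l1* and *Abca4* and the lowest for *Prph2*, *Rom1* and *Tulp1* of its group, was thus also the one with the steepest rise with length over all genes. In Pkm2Rodko rods all 5 long genes were above their group mean in the third library and below it in the first, whereas in control rods they deviated in both directions within each library.

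**Figure D5:**
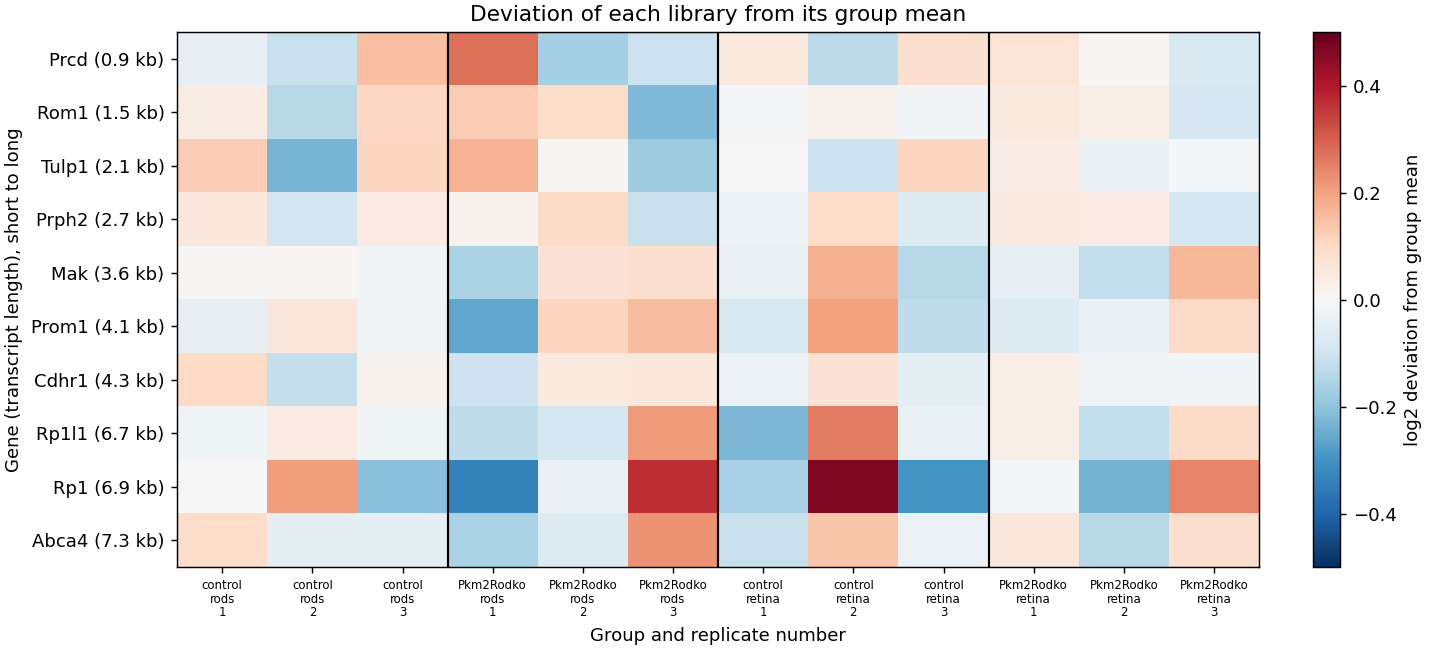
Log2 deviation of each library from its group mean (colour, red above and blue below) for the 10 genes, ordered from the shortest to the longest transcript (rows), in the 12 libraries (columns, with black lines between groups). The third Pkm2Rodko rod library is red for the 5 longest and blue for the 4 shortest transcripts, the first is the opposite, and Rp1 has the deepest colours.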

How the data were processed

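RNA-seq of rod pulldown and input was analysed in 12 mouse libraries, 3 in each of 4 groups taken from the sample titles. The authors deposited 1 table in which every library has a signal for each gene. This signal is a read number divided by a size factor of that fraction, rounded to 1 decimal. The submitters' processing notes name CASAVA 1.8.2, HISAT2, DESeq2, edgeR and the build GRCm39 without their roles, and the counting tool, annotation and strand setting are not given in the sources used here. Multiplying each value by its library's size factor gave whole reads for 100.0% of positive values within a tolerance of 0.06, with totals of 13458890 to 22790074, and 3 libraries a group set the precision. No per-sample column was left unmapped, and every pair of libraries in a group differed beyond counting noise (chi-square).

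The genotype effect in each fraction was tested with limma 3.58.1 (R 4.3.3, variance trend) on log2(deposited value + 1), for genes with a mean of at least 1 in a genotype. Rods and retina, and the difference of genotype effects, were tested in 1 limma fit of 4 group means on log2(TMM-scaled reads + 1). A fold change on this scale understates the change of low genes. P-values were adjusted over all genes tested by the Benjamini-Hochberg method at 0.05. The fits were tested on simulated data. Alternatives were edgeR 4.0.16, DESeq2 1.42.0, RLE scaling, total reads, the deposited values, a pseudocount of 0.1, no filter, 10 reads in every library, blocking on the replicate number, a single fit of the 12 libraries and leaving out each library. limma without the variance trend, exon lengths for levels and the reads per *Prph2* read (scipy 1.17.1, Python 3.11.15) were added after seeing the data. Libraries of the same genotype and replicate number in rods and retina deviated together over 11264 genes (correlations of 0.21 to 0.52 in all 6 pairs, each above those with other numbers), so the numbers were taken to pair pulldown and input. Transcript lengths came from GENCODE vM21 and promoters from RefSeq, both GRCm38, which differs from the authors' build. Protein sequences and promoters of *Rp1* and *Rp1l1* were not used here.

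All 10 genes were named in every comparison. *Pkm*, the extremes of the partner lists in control mice, the highest relative of each family and the 5 genes of the most similar profile were also named, except 1 partner gene that is not reported here, and marker lists were given by counts and medians. The genes and lists were chosen with earlier results of these data known.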

Additional observations from a re-analysis of the deposited data

How the results depend on the processing

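None of the 10 genes passed in either genotype comparison, or in the difference between the genotype effects, under any alternative, and all 10 were higher in rods under every alternative except total reads and the deposited values, where *Rp1* or *Mak* or both lost the call as given above. Leaving out 1 library turned the sign of small genotype changes in rods for *Prph2* (−0.0066 to 0.096), *Rom1* (−0.058 to 0.12), *Cdhr1* (−0.018 to 0.093), *Abca4* (−0.073 to 0.12) and *Tulp1* (−0.14 to 0.060), and in retina for *Rp1* (−0.012 to 0.37). It also turned the difference between fractions for *Rom1* (−0.19 to 0.011), *Prom1* (−0.060 to 0.14), *Cdhr1* (−0.077 to 0.0039), *Abca4* (−0.14 to 0.018), *Rp1* (−0.13 to 0.25) and *Rp1l1* (−0.18 to 0.051). Over all genes, the 4 lower calls in rods became 7 with DESeq2, 18 in 1 fit of all 12 libraries, 0 in limma without the variance trend and 2 to 4 with a library left out, and the 0 higher calls became 0 to 4 with a library left out. In retina the 1 lower call became 0 with 10 reads in every library and 0 to 2 with a library left out, and the 0 higher calls became 0 to 4. Genes higher in rods numbered 6001 in control mice (2184 with total reads, 1942 on deposited values) and 6108 in Pkm2Rodko mice (2198 and 2076). Genes lower in rods numbered 9083 and 8992 of 25584 tested. With 10 reads in every library they numbered 3614 and 3586, where only 12918 genes were tested. DESeq2 called 1 gene lower in the difference between fractions. With the replicate number as a block between genotypes, 4 genes were higher in rods, 0 were lower in retina and 0 of the 10 genes were called. Those numbers share no pairing between genotypes (correlations of −0.38 to 0.07). As a block that pairs rods with retina, the number left 10 of the 10 genes called higher in both genotypes and changed no call of theirs. The cause of these changes was not tested. Precision was limited by 3 libraries a group.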
